A study of Mus musculus with 6 samples.

Results

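The 9 genes described here are the germline and somatic forms of 3 mitochondrial respiratory proteins in mouse gonads. They were chosen by name, as every probe set whose platform gene symbol is one of the 9, out of 18193 genes on the arrays. The testis forms are Cyct (cytochrome c), Cox6b2 and Cox8c (cytochrome oxidase subunits) and Slc25a31 (ADP/ATP carrier). The somatic forms are Cycs, Cox6b1, Cox8a, Slc25a4 and Slc25a5. Together they have 26 probe sets, groups of short oligonucleotides meant to read transcripts of 1 gene. Of these, 23 gave a signal above the floor on at least 1 array.

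RNA from ovaries and testes of C57BL/6 mice, an inbred laboratory strain, was hybridized to 6 Affymetrix arrays, which report a brightness for each probe set. The groups were fetal ovary and fetal testis at 15.5 days postcoitum, neonatal ovary and neonatal testis at 1 day after birth, and adult ovary and adult testis at 10 weeks. No mutation or treatment is given in the labels, and the sources used here do not give the number of animals behind a sample. Each group has 1 array, so no difference has a replicate check, no p-value was computed, and a fixed ratio of 4 or more between 2 arrays describes size.

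Cytochrome c carries electrons between the respiratory complexes, cytochrome oxidase passes them to oxygen, and the ADP/ATP carrier exchanges the ADP and ATP of the matrix with those of the cytosol. Mammals have separate genes for testis forms of several of these proteins, which are made in male germ cells, while the somatic forms are made in most tissues. Cytochrome c released from mitochondria also triggers apoptosis, and male mice without Slc25a31 are infertile because their germ cells stop in meiosis.

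In adult testis, all 4 testis forms had their highest signal of the 6 arrays and all 5 somatic forms had their lowest. For Slc25a31 the margin was small, at 1616 against 1391 in fetal ovary, a log2 difference of 0.22. How many of all genes were highest or lowest in adult testis was not counted, so how unusual these places are is not known. For genes above the floor on both arrays, the median log2 ratio of adult testis was -0.50 over neonatal testis and -0.54 over adult ovary. Against adult ovary, the 4 testis forms were between 13.1-fold and at least 38.3-fold higher in adult testis, and 4 of the 5 somatic forms were between 4.33-fold and 7.46-fold lower. The shares of the 18193 genes past 4-fold in this comparison were 10.9% higher and 11.9% lower. Against neonatal testis, 3 of 4 testis forms were 4-fold or more higher (10.7% of all genes) and 3 of 5 somatic forms 4-fold or more lower (10.3% of all genes). At 2-fold, 3 of 4 testis forms were higher (17.7% of all genes) and 5 of 5 somatic forms lower (25.4%) against neonatal testis, and 4 of 4 higher (17.7%) and 4 of 5 lower (26.9%) against adult ovary. Scaled to the hybridization controls, RNAs added in fixed amounts, no somatic form passed 4-fold in either comparison and Cycs turned direction, while the counts of testis forms kept within 1.5 times.

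**Figure D1:**
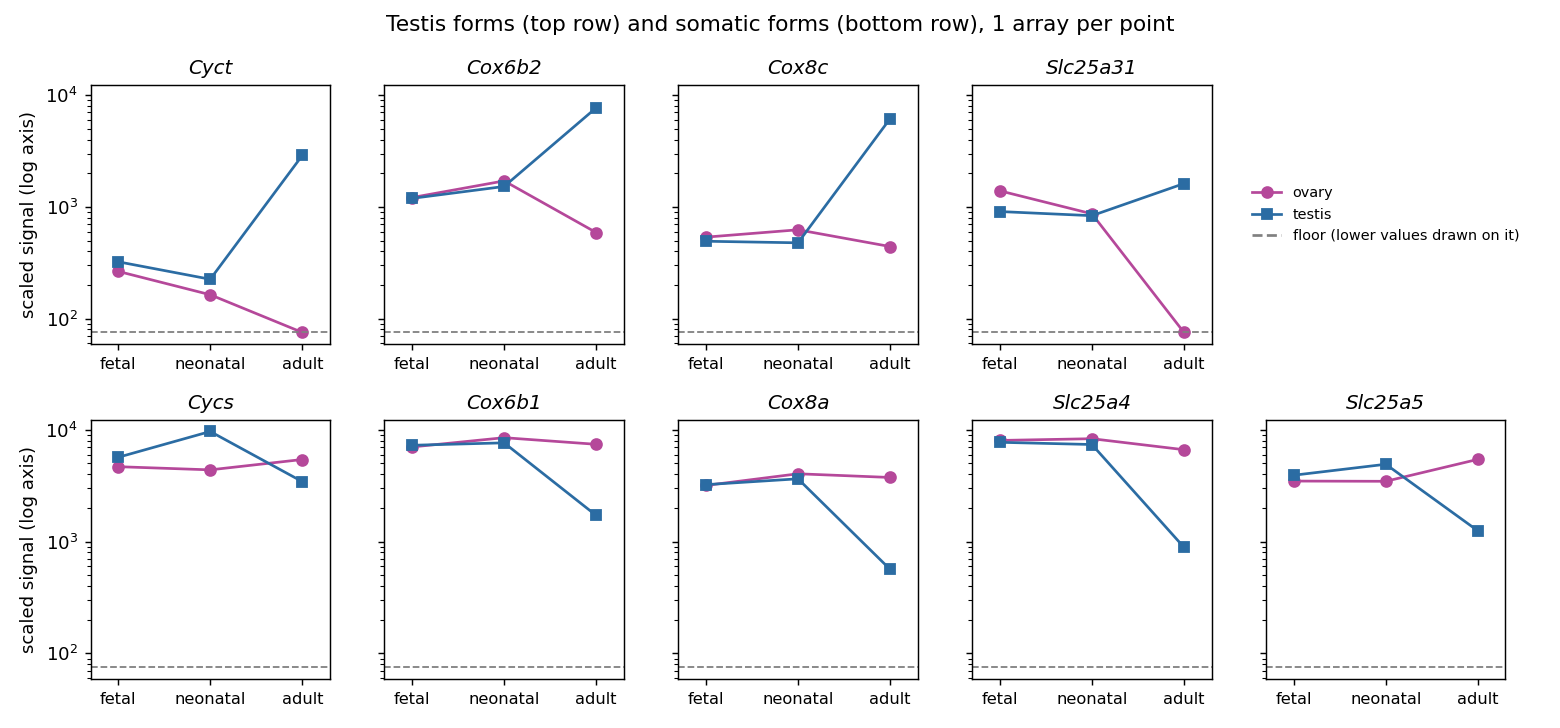
Scaled signal (log axis) of the 4 testis forms in the top row and the 5 somatic forms in the bottom row, by age, with 1 array per point (circles for ovary, squares for testis) and the floor of 75.3 as a dashed line. The adult testis is the highest point for each testis form and the lowest for each somatic form, though scaling to the hybridization controls turns the direction of Cycs. For Slc25a31 it lies above fetal ovary by a log2 difference of only 0.22. The share of all genes highest or lowest in adult testis was not counted.

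Signals were scaled to a common trimmed mean, and values under a floor of 75.3, the median of all scaled signals, were raised to it. Where 1 of 2 arrays lay at the floor, the ratio is a bound. Signals of different probe sets depend on their oligonucleotides and are not set against each other, so the forms are compared by their ratios between the same 2 arrays. The only spread available is that between probe sets of the same gene, called technical here. Pairs of probe sets of the same gene gave a robust SD of 1 log2 ratio of 0.57 for adult over neonatal testis, 0.63 for adult testis over adult ovary and 0.16 for fetal testis over fetal ovary. It covers no variation between animals. It may also take in differences between the transcripts that the probe sets of a gene read, so it may not be measurement error alone. In whole gonads, fewer cells of a type and less RNA per cell cannot be told apart.

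Cyct encodes the cytochrome c of male germ cells. Its probe set had a signal of 2884 in adult testis, 225 in neonatal testis and 323 in fetal testis, and of 265 in fetal ovary, 164 in neonatal ovary and below the floor in adult ovary. The adult testis thus stood far above the other 5 arrays, while the fetal and neonatal gonads of both sexes lay between 164 and 323. Cyct was 12.8-fold higher in adult than in neonatal testis and at least 38.3-fold higher than in adult ovary. Among the 14349 genes above the floor in adult testis or adult ovary, 2.90% had a ratio as high.

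Cycs, the cytochrome c of other tissues, had a signal of 3440 in adult testis, 9667 in neonatal testis and 5678 in fetal testis by its brightest probe set. In ovary it had 4680 at the fetal, 4384 at the neonatal and 5426 at the adult stage. Neonatal testis was the highest array and adult testis the lowest. Cycs was 2.81-fold lower in adult than in neonatal testis and 1.58-fold lower than in adult ovary, so it passed 4-fold in neither comparison. Over adult ovary, 42.4% of the 14349 genes had a ratio as low or lower. The log2 ratio of Cycs there was -0.66, near the median of -0.54 for genes above the floor on both arrays. Cycs was also 2.20-fold higher in neonatal testis than in neonatal ovary, a comparison in which 3.8% of all genes passed 2-fold upward. The 3 probe sets above the floor gave 2.20-fold to 3.11-fold for that difference, and 2.81-fold to 3.95-fold for the lower level in adult testis than in neonatal testis. With arrays scaled to the hybridization controls, the direction of Cycs turned, to a log2 ratio of 0.01 over neonatal testis and 0.46 over adult ovary.

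Between adult and neonatal testis, the log2 ratio of Cyct exceeded that of Cycs by 5.17, a 36.0-fold shift in their relative signal. From fetal to neonatal testis their ratios went the other way. Cyct was 1.43-fold lower and Cycs 1.70-fold higher in neonatal testis, a log2 difference of -1.29 against a technical SD of 0.31.

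The bases before the start of these 2 genes, with that of Slc25a31, are shown because they differ in short motifs. Promoters of 300 bases (250 before and 50 from the start on) came from RefSeq, build GRCm38.p6, and were found for 8 of the 9 genes, Cox8c being the other. Capitals mark matches, on either strand, to 5 motifs picked after these sequences had been seen: TGACGTCA (a cAMP response element), GCATGCGC (the core of a site for the factor NRF1), TTCCCGCC (a type of E2F6 site), CACGTG (an E-box) and CCAAT. Cyct is on chromosome 2 (chr2:76360454-76360603, minus strand), Cycs on chromosome 6 (chr6:50566570-50566769, minus strand) and Slc25a31 on chromosome 3 (chr3:40708721-40708870, plus strand). The last line is a stretch of Slc25a31 at chr3:40708880-40708909, just after its start.
Cyct: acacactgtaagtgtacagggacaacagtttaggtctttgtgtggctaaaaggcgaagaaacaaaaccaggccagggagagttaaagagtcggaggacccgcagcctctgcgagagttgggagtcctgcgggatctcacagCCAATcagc
Cycs: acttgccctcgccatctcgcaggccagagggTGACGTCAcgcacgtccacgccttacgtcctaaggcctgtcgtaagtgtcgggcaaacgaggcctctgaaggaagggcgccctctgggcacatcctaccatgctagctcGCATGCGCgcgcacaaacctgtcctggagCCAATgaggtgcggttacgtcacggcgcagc
Slc25a31: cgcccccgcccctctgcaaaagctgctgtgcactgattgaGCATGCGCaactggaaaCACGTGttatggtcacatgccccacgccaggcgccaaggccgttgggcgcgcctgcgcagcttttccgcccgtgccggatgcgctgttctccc
Slc25a31 E2F6-type site: agcgcccgctTTCCCGCCagggtaaagctg

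The promoter of Cycs held TGACGTCA, which 1.79% of 32851 promoters hold, and GCATGCGC, which 2.71% hold. The promoter of Slc25a31 held GCATGCGC, CACGTG (7.15% of promoters) and, 20 bases from its start, TTCCCGCC (2.19%). Cyct held CCAAT alone, 9 bases before its start, a motif in 37.4% of promoters. No match overlapped another. CpG pairs, the sites of DNA methylation, numbered 32 in the 300 bases of Cycs, 22 in Slc25a31, 10 in Cox6b2 and 8 in Cyct, against a median of 7 over all promoters. The motifs and the genes shown were picked with these sequences known, so the shares do not measure how unusual the matches are. A match is a description of these letters, and binding was not measured.

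Cox6b2 and Cox8c encode testis forms of 2 small nuclear-encoded subunits of cytochrome oxidase. Cox6b2 had a signal of 7696 in adult testis, 1522 in neonatal testis and 1191 in fetal testis. In ovary it had 1212 at the fetal, 1707 at the neonatal and 589 at the adult stage. It was therefore above the floor on all 6 arrays, with fetal and neonatal levels that were alike in both sexes. Cox6b2 was 5.06-fold higher in adult than in neonatal testis and 13.1-fold higher than in adult ovary.

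Cox8c had a signal of 6146 in adult testis, 477 in neonatal testis, 492 in fetal testis, 536 in fetal ovary, 624 in neonatal ovary and 442 in adult ovary. The 5 arrays other than adult testis lay close together. It was 12.9-fold higher in adult than in neonatal testis and 13.9-fold higher than in adult ovary. A second, dimmer probe set of Cox8c had 410 in adult testis and gave ratios of at least 5.44 and of 4.79. That probe set read 276 in neonatal ovary and below the floor in fetal ovary, where the brighter one read 624 and 536, so the probe sets disagree on the neonatal ovary.

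The somatic partners went the opposite way. Cox6b1, which lies where the monomers of cytochrome oxidase meet, had a signal of 1714 in adult testis against 7648 in neonatal testis, 7274 in fetal testis and 7028, 8507 and 7420 in fetal, neonatal and adult ovary. Only the adult testis stood apart from this narrow range. It was 4.46-fold lower in adult than in neonatal testis and 4.33-fold lower than in adult ovary.

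Cox8a had 565 in adult testis against 3645 in neonatal testis, 3233 in fetal testis and 3183, 4044 and 3749 in the 3 ovaries from fetal to adult. It was 6.45-fold lower in adult than in neonatal testis and 6.63-fold lower than in adult ovary. Its other probe set above the floor gave 4.44-fold and 4.49-fold. The log2 ratio of Cox8c exceeded that of Cox8a by 6.38 in adult over neonatal testis, and that of Cox6b2 exceeded Cox6b1 by 4.50.

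Slc25a31, the germ cell ADP/ATP carrier, differed from the other testis forms in the young gonads. Its signal was 1616 in adult testis, 834 in neonatal testis and 908 in fetal testis, 1391 in fetal ovary and 866 in neonatal ovary, and below the floor in adult ovary. The fetal ovary was thus second to the adult testis, and only the adult ovary was without a signal above the floor. Slc25a31 was 1.94-fold higher in adult than in neonatal testis, under 4-fold, and at least 21.5-fold higher than in adult ovary. Between neonatal and adult ovary it was at least 11.5-fold lower in the adult, where 1.89% of all genes were 4-fold or more lower. In the fetus it was 1.53-fold higher in ovary than in testis, a log2 difference of 0.62 against a technical SD of 0.16.

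Slc25a4 is the carrier of heart and muscle and Slc25a5 that of dividing and many other cells. Slc25a4 had a signal of 890 in adult testis, 7390 in neonatal testis and 7733 in fetal testis, and of 8035, 8329 and 6641 in fetal, neonatal and adult ovary. It was 8.31-fold lower in adult than in neonatal testis and 7.46-fold lower than in adult ovary, the largest such ratios among the 5 somatic forms by the brightest probe sets. The 3 probe sets above the floor spanned 3.44-fold to 8.31-fold in the first comparison, so the size depends on the probe set, while each was lower in adult testis.

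Slc25a5, the only member on chromosome X, had 1249 in adult testis, 4920 in neonatal testis, 3926 in fetal testis and 3480, 3464 and 5442 in fetal, neonatal and adult ovary. It was 3.94-fold lower in adult than in neonatal testis and 4.36-fold lower than in adult ovary. All 8 probe sets of Slc25a5 were lower in adult testis, by 3.29-fold to 4.77-fold and by 4.13-fold to 5.21-fold. Of these 8, 6 carry the suffix _x, which the maker gives to probe sets that may read other transcripts, as do the brightest of Slc25a4 and of Cox8a and the dimmer of Cox8c. The part of related sequence in these signals was not tested.

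**Figure D2:**
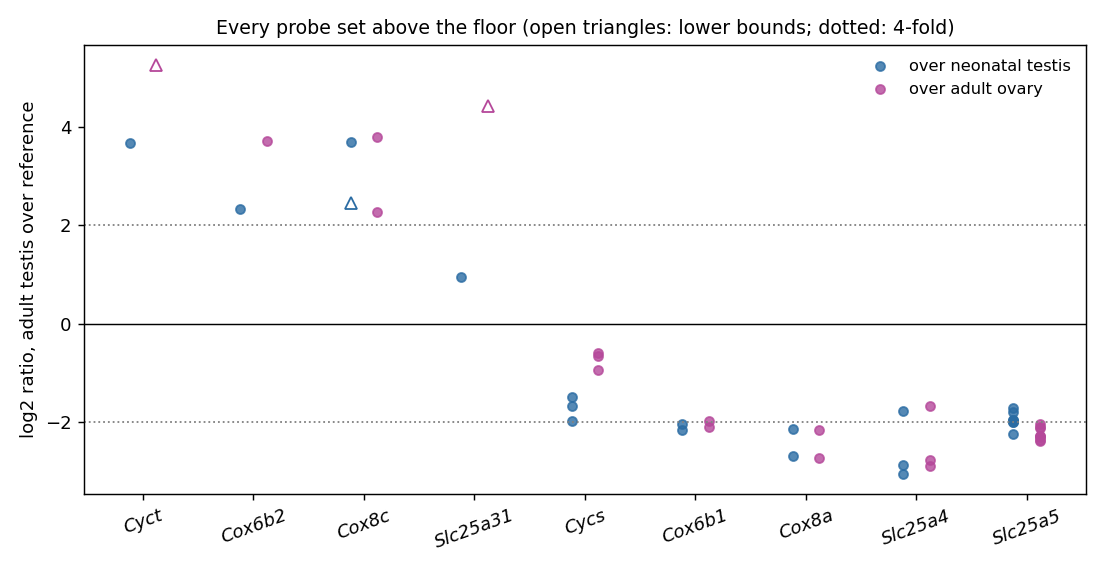
Log2 ratio of adult testis over neonatal testis (blue) and over adult ovary (purple) for every probe set of the 9 genes above the floor on at least 1 of the 2 arrays, with lower bounds as open triangles and 4-fold as dotted lines. The probe sets of the testis forms lie above 0 and those of the somatic forms below it, where Cycs turns to 0.01 and 0.46 with scaling to the hybridization controls.

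Side by side, the testis form had the higher log2 ratio in all 5 pairs in both adult comparisons. In adult over neonatal testis the difference ran from 2.93 (Slc25a31 and Slc25a5) to 6.38 (Cox8c and Cox8a), against a technical SD of such a difference of 0.81. In adult testis over adult ovary it ran from 5.82 (Cox6b2 and Cox6b1) to at least 7.32 (Slc25a31 and Slc25a4), against 0.90. These 2 comparisons share the adult testis array. A factor common to an array cancels in these differences, apart from its effect at the floor.

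**Figure D3:**
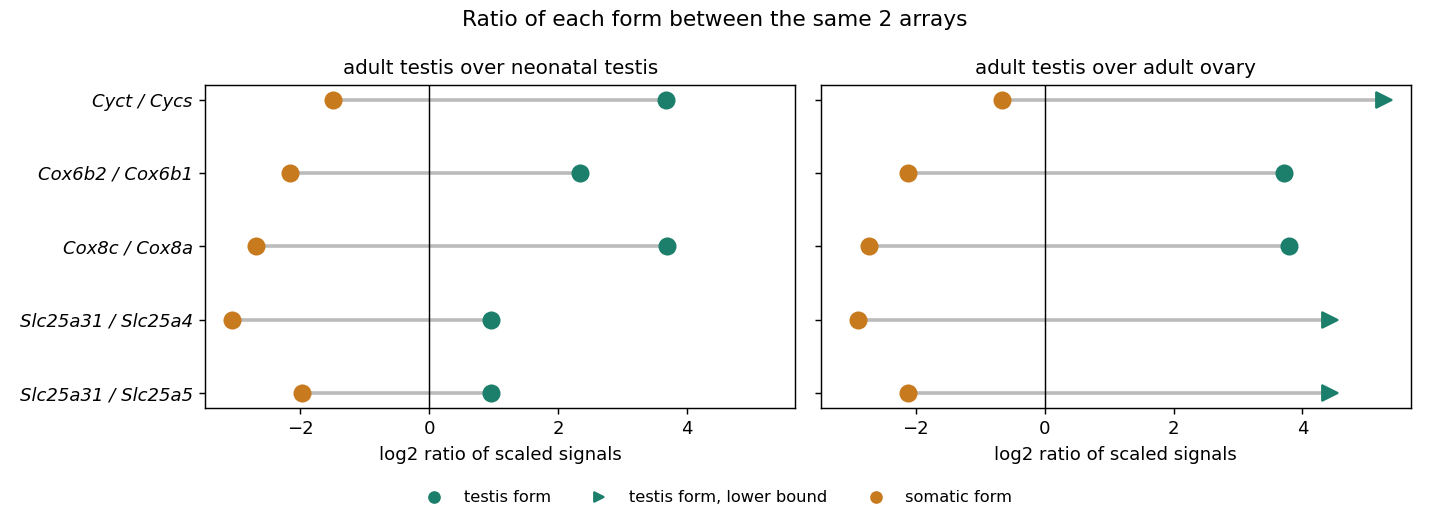
Log2 ratio of the testis form (green; triangles are lower bounds) and of its somatic counterpart (orange) in adult testis over neonatal testis at left and over adult ovary at right. Each line joins a pair, the shortest at 2.93 and the longest at 7.32 or more.

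In the young gonads the pairs lay closer together, and no member passed 4-fold. Few genes of the arrays did so in neonatal over fetal testis (0.357% higher and 0.44% lower), neonatal over fetal ovary (0.759% and 0.231%), fetal testis over fetal ovary (0.44% and 0.192%) or neonatal testis over neonatal ovary (0.962% and 1.4%). At 2-fold, Cycs in neonatal testis over neonatal ovary was the single member called by its brightest probe set (3.8% higher and 5.8% lower). None was called in neonatal over fetal testis (2.29% and 3.42%), neonatal over fetal ovary (3.6% and 2.47%) or fetal testis over fetal ovary (1.79% and 1.16%). In fetal testis over fetal ovary the 5 differences ran from -0.79 to 0.01, and in neonatal testis over neonatal ovary from -0.68 to 0.12. Only the 2 carrier pairs exceeded the technical SD of 0.23 by 2 times or more in the fetus, both through the higher Slc25a31 of fetal ovary. In adult over neonatal ovary all 5 differences were negative. They ran from -0.39 for Cox8c and Cox8a to at most -4.18 for Slc25a31 and Slc25a5. Between these ages Cyct was at least 2.17-fold and Cox6b2 2.90-fold lower in adult ovary, where 6.87% of all genes were 2-fold or more lower. The somatic forms lay between 1.25-fold lower and 1.57-fold higher, and no member passed 2-fold (5.86%) or 4-fold (1.48%) upward. The 8 probe sets of Slc25a5 ranged from 1.28-fold to 2.15-fold higher.

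Most other genes of the respiratory chain did not share the size of the somatic forms' difference in adult testis. Of 74 nuclear genes listed for complexes I to V, 70 were measured, and 3 of these (4.29%) were 4-fold or more lower than in neonatal testis and none higher, where 10.3% of all genes were lower and 10.7% higher. For the 69 with a signal above the floor the median log2 ratio was -0.44, turning to 1.05 with scaling to the hybridization controls. It was -0.30 for all such genes on the arrays and -2.16 for the 5 somatic forms. Over adult ovary 3 were lower and none higher (11.9% and 10.9% of all genes), with a median of -0.35 (0.74 with that scaling), against -0.35 for all genes and -2.12 for the somatic forms.

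Of the 8 other subunits listed under cytochrome oxidase, 7 were measured and none of these passed 4-fold (median -0.38). Cox7c was at least 2.60-fold lower than in neonatal testis, a bound because it was below the floor in adult testis. Ndufa4, now placed with cytochrome oxidase but listed here under complex I, was 6.40-fold lower than in neonatal testis. Cox4i1 had a signal of 5743 in adult and 7811 in neonatal testis, Cox5a 6961 and 6696, and Cox7a2 9419 and 10570. Of the 4 tissue forms of cytochrome oxidase, Cox7b2, a testis form of subunit VIIb, had 5421 in adult testis, 288 in neonatal testis and 220 in fetal testis and was below the floor in the 3 ovaries. It was 18.9-fold higher in adult than in neonatal testis and at least 72.0-fold higher than in adult ovary. Cox4i2, Cox6a2 and Cox7a1, forms of lung and muscle, had at most 216 on any array and passed 4-fold in neither comparison. Cox6a2 was below the floor in adult testis, so its ratios are bounds.

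By complex, the median log2 ratio over neonatal testis was -0.21 for complex I (34 genes measured, 2 lower), -0.63 for complex II (4, none lower), -0.42 for complex III (9, none lower) and -0.78 for complex V (16, 1 lower). The 3 lower genes were Ndufa4, Ndufb11 of complex I (6.71-fold) and Atp5mc2, a ring subunit of ATP synthase (6.21-fold). The same 3 genes passed 4-fold against adult ovary.

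Among 14 measured carriers and channels of the mitochondrial membranes, 3 were 4-fold or more lower in adult than in neonatal testis (median -0.95), which is 21.4%, with 10.3% of all genes lower. Vdac1, a pore of the outer membrane, had 504 in adult and 5427 in neonatal testis, 10.8-fold lower, and its 4 probe sets with a ratio had log2 values from -3.43 to -2.91. Its relative Vdac2 had 7550 and 4262, 1.77-fold higher. The aspartate/glutamate carrier Slc25a12 and the ATP-Mg/phosphate carrier Slc25a24 were 5.79-fold and 9.93-fold lower. Against adult ovary 4 of 14 were lower, these 3 and Slc25a13, with 11.9% of all genes lower. Another probe set of Slc25a12 had a log2 ratio of -1.24 there. Slc25a13 was below the floor in adult testis, so its ratios are bounds, and that over neonatal testis may be 4-fold or more. The phosphate carrier Slc25a3 was 1.93-fold lower than in neonatal testis.

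**Figure D4:**
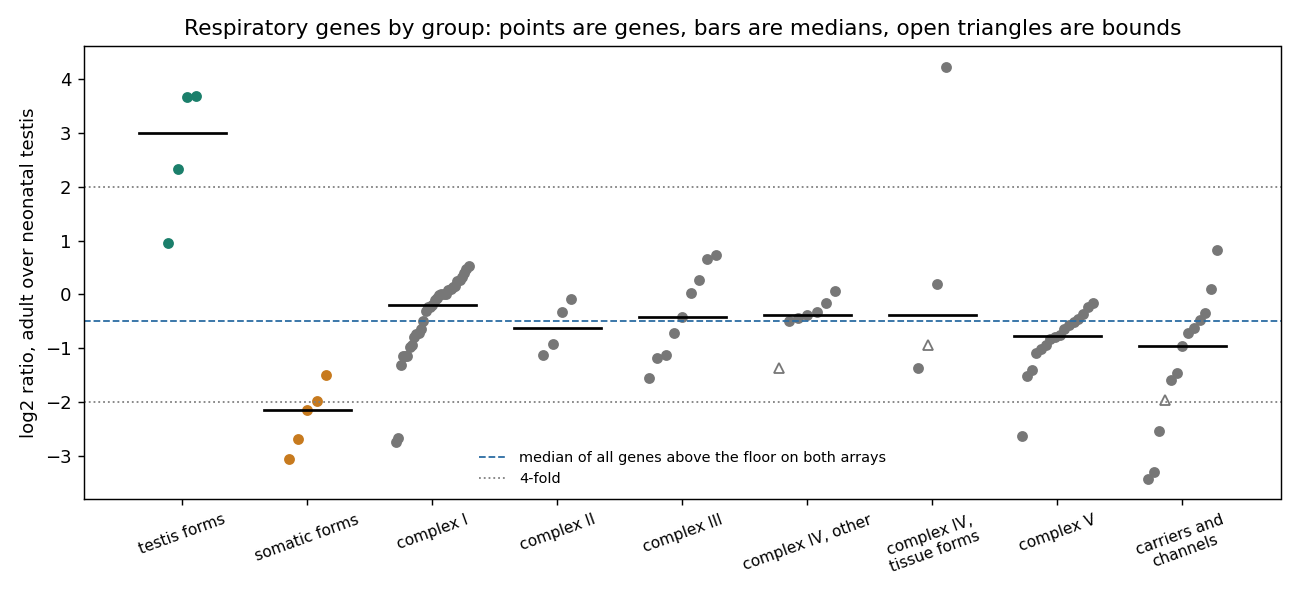
Log2 ratio of adult over neonatal testis for each gene of the respiratory lists (points; open triangles are bounds), with list medians as bars, 4-fold as dotted lines and the median of all genes above the floor on both arrays, -0.50, as a dashed line. The somatic forms have a median of -2.16, while the medians of complexes I to V lie between -0.78 and -0.21. With scaling to the hybridization controls the median of the respiratory chain turns to 1.05.

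Genes were also ranked by how closely their profile over the 6 arrays followed each member, as the root mean square difference of log2 signals after each gene's own mean was taken away. The closest to Slc25a31 were Dazl (0.33), Igf2bp3 (0.42) and Gpat2 (0.45). Dazl had a signal of 1916 in fetal ovary, 893 in neonatal ovary and 132 in adult ovary. In testis it had 1222 at the fetal, 1615 at the neonatal and 1772 at the adult stage. It was thus higher in neonatal than in fetal testis, where Slc25a31 had 834 and 908. The closest to Cyct were Mns1, Spa17 and C1qtnf4 (0.28 to 0.33), to Cox6b2 Itgb3bp, Dmrtc1a and Cdca2 (0.20 to 0.22), and to Cox8c Adtrp, Bag5 and 4930570E03Rik (0.06 to 0.09). Signals were raised to the floor first, which sets part of some matches. Adtrp was below the floor on 3 arrays and 4930570E03Rik on 4, while Bag5 was above it on all 6. In adult ovary Cyct, Slc25a31, C1qtnf4, Dmrtc1a and Gpat2 were below it. For the somatic forms they were Bag2, Pdia5 and Rfwd3 with Cycs, Txndc17, Tor1a and Hspa8 with Cox6b1, and Grn, Pigq and Lage3 with Cox8a. Ppp1ca, Blmh and Nono were closest to Slc25a4, and Smim26, Mef2a and Pdgfb to Slc25a5. Among the members, Cox6b1 and Cox8a were closest (0.20) and Cyct and Slc25a4 farthest apart (2.69).

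Markers of several cell types differed in the adult testis. All 8 markers of late spermatocytes and spermatids were above the floor there, with a summed signal of 73792, against 137 to 318 on the other arrays, where 7 or 8 of the 8, Prm1 and Tnp1 among them, were at the floor. The 5 granulosa markers summed to 2388 in adult testis, against 15612 in neonatal testis and 22566 in adult ovary. Inha and Inhbb, which Sertoli cells also make, carried the neonatal testis sum with 10554 and 4279, while Foxl2 had 142 there and 217 in adult testis. The 4 Sertoli markers summed to 5718 there and 16387 in neonatal testis, with Amh and Sox9 at the floor in adult testis. Cst9 alone gave 5319 of the adult sum and was 1.40-fold lower than in neonatal testis, while Amh was at least 70.5-fold, Dhh 10.8-fold and Sox9 at least 5.55-fold lower. The 3 measured Leydig markers summed to 4233 and 13664, with Cyp17a1 at 2600 and 2505. Smooth muscle markers summed to 2038 in adult testis and 3570 to 10395 elsewhere. Oocyte markers were above the floor for 4 of 5 in neonatal and 5 of 5 in adult ovary, and all 3 measured corpus luteum markers were in adult ovary. Adipoq, an adipocyte marker, was above the floor in adult testis alone, at 653. Striated muscle markers summed to 3451 in neonatal ovary and 223 to 683 elsewhere. Slc25a4 in neonatal ovary was 1.04-fold its fetal ovary signal, and the part of muscle RNA in either signal was not tested. Red cell markers summed to 3433 in fetal ovary and 59.9 to 1906 elsewhere. The 3' to 5' signal ratio of Gapdh, a check of RNA integrity, was 2.36 in adult testis, 3.12 in neonatal ovary and 1.32 to 1.45 on the others. That of Actb went the other way, at 1.81 in adult testis and 2.91 to 3.78 on the others. The hybridization controls had a geometric mean signal of 441 in adult testis and 592 to 1152 on the others. The part of cell makeup, RNA quality and scaling in the levels of the 9 genes was not tested.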

How the data were processed

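The 9 members, the gene lists and the comparisons were chosen with earlier results of these data known. The deposited table holds 1 intensity per probe set and array on a linear scale (45101 probe sets, 6 arrays). The submitters' processing notes name GCOS version 1 with no role. The sources used here do not give how the authors corrected background, summarised probes and scaled arrays.

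Each array was multiplied by a factor (0.913 to 1.26) to the same 2% trimmed mean, and scaled signals were raised to a floor of 75.3. Probe sets with 1 gene symbol in the platform annotation (34945) were used, and each gene took its probe set with the highest mean. There were 7 comparisons and 22 lists with 184 genes, 172 of them measured. Named genes are the members, list genes and, per member, the 3 closest profiles. Calls are ratios of 4 or more. The technical SD is the robust SD of differences between the 2 brightest probe sets of a gene, divided by the square root of 2. The precision is limited by the number of arrays. Steps were tested on simulated data made from 1 array, with less noise than the adult testis comparisons have. Changes were added only to genes well above the floor and to all their probe sets alike. Signals at the floor and probe sets that disagree were thus not covered. Python 3.11.15, numpy 2.4.6 and pandas 2.3.3 were used.

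Alternatives were 4 other scalings, a floor at the 25th or at the 75th percentile, 16 added in place of a floor, averaging a gene's probe sets, leaving out probe sets whose name marks shared or several transcripts, and ratios of 2 and 8.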

Additional observations from a re-analysis of the deposited data

Results flagged for a closer look

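Cyct and Cox6b2 went in opposite directions with age in the 2 sexes, by 2-fold or more each way. The log2 ratio of adult over neonatal in testis minus that in ovary was at least 4.80 for Cyct, which was 12.8-fold higher in adult testis and at least 2.17-fold lower in adult ovary. It was 3.87 for Cox6b2, 5.06-fold higher and 2.90-fold lower. With 1 array per group the difference was not tested. With age, 1.12% of the 18193 genes passed 2-fold upward in testis and downward in ovary. Slc25a31 lay just outside the limit, at 1.94-fold higher in testis and at least 11.5-fold lower in ovary. No group had enough arrays for a check for a sample that stands apart.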

How the results depend on the processing

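Under 9 other settings of scaling, floor and probe set choice, Cyct, Cox6b2, Cox8c and Slc25a31 kept a log2 ratio above 0 in both adult comparisons. The numbers of testis forms 4-fold or more higher, 3 and 4, stayed within 1.5 times under all 11 alternatives. Of 152 values recomputed, 131 stayed within the spread or 1.5 times, and 21 moved. Many could not move, so this tally is no measure of robustness. A factor common to an array cancels in a pair difference above the floor. Cyct, Cox6b2 and Slc25a31 have 1 probe set each, so the choice of probe set leaves their ratios unchanged. None of the pair differences changed sign. The median of the respiratory chain did, as did Cycs, lower under the other settings and at 0.01 and 0.46 with the hybridization controls.

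Scaling to the hybridization controls raised the median log2 ratio of all genes by 1.28 (adult over neonatal testis) and 0.97 (over adult ovary). The somatic forms 4-fold or more lower then numbered 0 and 0, and the respiratory chain median was 1.05 and 0.74. All-gene calls went from 1939 higher and 1876 lower to 4054 and 404, and over adult ovary from 1980 and 2166 to 3474 and 753. Relative to the median of all genes above the floor, Cox6b1 lay at -1.98 to -1.45, Cox8a at -2.49 to -1.34 and Slc25a5 at -1.80 to -1.27 under every setting over neonatal testis. Relative to the same median, Cycs lay at -1.32 to -0.78 over neonatal testis and at -0.47 to 0.03 over adult ovary. A ratio of 2 gave 5 somatic forms lower over neonatal testis, where 25.4% of all genes were lower. A ratio of 8 gave 1, and 0 over adult ovary, and the share of all genes past 8-fold was not counted. The mean of all probe sets, which includes those at the floor, gave 1 and 2 somatic forms lower, with Cox8c minus Cox8a at 4.68 and 4.66 and Slc25a31 minus Slc25a4 at 2.88 and 6.26. With it 1060 and 1177 genes were lower in all. Without the _a, _s, _x and _g probe sets 2 somatic forms were lower over adult ovary, with 1778 genes lower in all. Slc25a4 then has a probe set at the floor alone, so the values of 0.95 and 4.42 for Slc25a31 minus Slc25a4 are void.

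Over adult ovary, Cyct minus Cycs was 7.62 with the floor at the 25th percentile, 3.73 at the 75th and 6.87 with no floor. Slc25a31 minus Slc25a4 and minus Slc25a5 were 5.14 and 4.36 with the 75th. That floor gave 1172 genes higher and 741 lower over neonatal testis, and 1196 and 787 over adult ovary. No paired analysis was possible because each group has 1 array. Signals under the floor limit Cyct and Slc25a31 in adult ovary to bounds.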

Other observations

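Of 8 measured genes of apoptosis through cytochrome c, 3 were 4-fold or more lower than in neonatal testis and 1 higher, with 10.3% of all genes lower and 10.7% higher. Bak1, Bcl2 and Bcl2l1 passed 4-fold in neither direction. Endog was not called either, but it was below the floor in adult testis, so its ratio is a bound and may be 4-fold or more. The 3 lower genes were Apaf1 (4.57-fold), Casp9 (4.73-fold) and Xiap (10.3-fold). Cytochrome c binds Apaf1 to form the apoptosome, Casp9 is the caspase activated there and Xiap is a caspase inhibitor. Diablo, which blocks such inhibitors, was 4.01-fold higher, with signals of 5062 and 1263. The probe sets of Xiap gave log2 ratios from -3.36 to 0.58 and the other probe set of Diablo gave -0.19, so both depend on the probe set. Against adult ovary 4 of 8 were lower, with 11.9% of all genes lower. Endog was at least 4.61-fold lower there by 1 probe set, while its other gave a log2 ratio of -0.96.

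Of 11 genes for the assembly of cytochrome c and cytochrome oxidase, Sco2, a copper chaperone, was at least 5.33-fold higher than in neonatal testis and 1.78-fold higher than in adult ovary. Of all genes, 10.7% were 4-fold or more higher than in neonatal testis. Surf1 was 5.19-fold lower than in adult ovary, where 11.9% of all genes were 4-fold or more lower. Of 13 genes of mitochondrial biogenesis, Gabpa (4.48-fold) and Ssbp1 (4.91-fold) were 4-fold or more lower than in neonatal testis. That is 15.4% of the list, where 10.3% of all genes were lower. Another probe set of each gene did not share this (log2 0.18 and -0.18). Tfb1m was 4.32-fold higher than in adult ovary, where 10.9% of all genes were 4-fold or more higher.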
